A study of Mus musculus with 10 samples.

Results

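The genes described here encode 36 enzymes and regulators of cholesterol, fatty acid and myelin galactolipid synthesis, followed in cochleas of mice at postnatal day 8. They were chosen by name, from the sterol pathway and the fatty acid and sphingolipid pathways, and all 36 were found among the 27179 Entrez gene rows of the deposited count table. The comparison is between 5 libraries labelled Pknox2-/- and 5 labelled Pknox2+/+, called knockout and wild type below. The sources used here do not give the strain, the extent of the deleted part of Pknox2 or whether a library holds 1 pup or several. Where libraries share a source, p-values measure only the spread between these libraries. All 36 genes passed the filter on low counts, so all were tested, in a fit over 16018 genes.

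Cells make cholesterol from acetyl-CoA through mevalonate, isoprenoids, squalene and a series of sterols. The transcription factors SREBP1 and SREBP2 switch on these enzymes and those of fatty acid synthesis when membrane sterol is low. Myelin membrane is rich in cholesterol, in very long fatty acids and in galactosylceramide and its sulfated form, sulfatide, and a Schwann cell makes most of these lipids itself while it wraps an axon. In the cochlea, spiral ganglion axons are being myelinated in the postnatal weeks before and around the onset of hearing.

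None of the 36 genes passed the test (edgeR quasi-likelihood test, adjusted p under 0.05 over all tested genes), where 0.0187% of all tested genes did. The smallest adjusted p was 0.182, for Fa2h. Below an unadjusted p of 0.05, 8 of the 36 had lower levels in the knockout libraries and 1 had a higher level, against 8.66% and 11.4% of all tested genes. The 8 were Hmgcs1, Idi1, Nsdhl, Scd1, Scd2, Elovl6, Fa2h and Ugt8a, and the 1 was Ebp. For Idi1, Fa2h and Ugt8a all 5 knockout libraries lay below the lowest wild-type library, as in 1.22% of all tested genes, and no member lay wholly above, as in 1.15% (2.37% in either direction). Over the 36 genes, 24 log2 fold changes (knockout minus wild type) were below 0 and 12 above, with a median of -0.10, while over all tested genes the median was -0.01 and 51.7% were below 0.

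Libraries held 16.6 to 19.4 M counts. The libraries labelled knockout 2, 3 and 5 stood apart from the other 7, with scores of 41.2 to 73.5 along principal component 1 (56.6% of the variance) against -42.3 to 2.77. Counts of 81 ribosomal protein genes made up 4.52% to 5.82% of those libraries and 2.22% to 3.80% of the others. Summed Y-linked transcripts (Ddx3y, Eif2s3y, Kdm5d and Uty) were at 102 to 225 CPM (counts per M counts of a library, after TMM scaling) in wild type and 209 CPM in knockout 1, and at 0 to 11.3 CPM in knockout 2 to 5. Apart from knockout 1, Y-linked expression and genotype thus differed together between the groups. Their parts in a difference between the groups cannot be told apart, also for the X-linked members Nsdhl and Ebp. Cochlear genes, picked after the data were seen, were counted in all 10 libraries. The hair cell genes Myo7a and Otof were at 13.6 to 20.1 CPM and 26.0 to 46.1 CPM, and the matrix gene Coch at 741 to 1596 CPM. The hair cell gene Slc26a5 was less even, at 0.181 to 7.57 CPM. Of the tectorial membrane genes, Tecta was at 13.5 to 46.8 CPM and Otog at 94.1 to 182 CPM, and the spiral limbus gene Otoa was at 68.5 to 113 CPM. Pknox2 itself was at 19.9 ± 1.96 CPM in wild type and 21.1 ± 4.38 CPM in knockout (SD, n = 5 each), a count over the whole gene that does not check the labels. Knockout 2 had 28 of the 36 genes, knockout 3 had 24 and knockout 5 had 23 outside the wild-type range, and knockout 1 and 4 had 8 each. Several results are also given without knockout 2, 3 and 5, which leaves 2 knockout libraries. Those libraries were picked because the same counts set them apart. Smaller differences without them, or with principal component 1 as a covariate, are therefore partly given by that choice and no independent check.

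**Figure D1:**
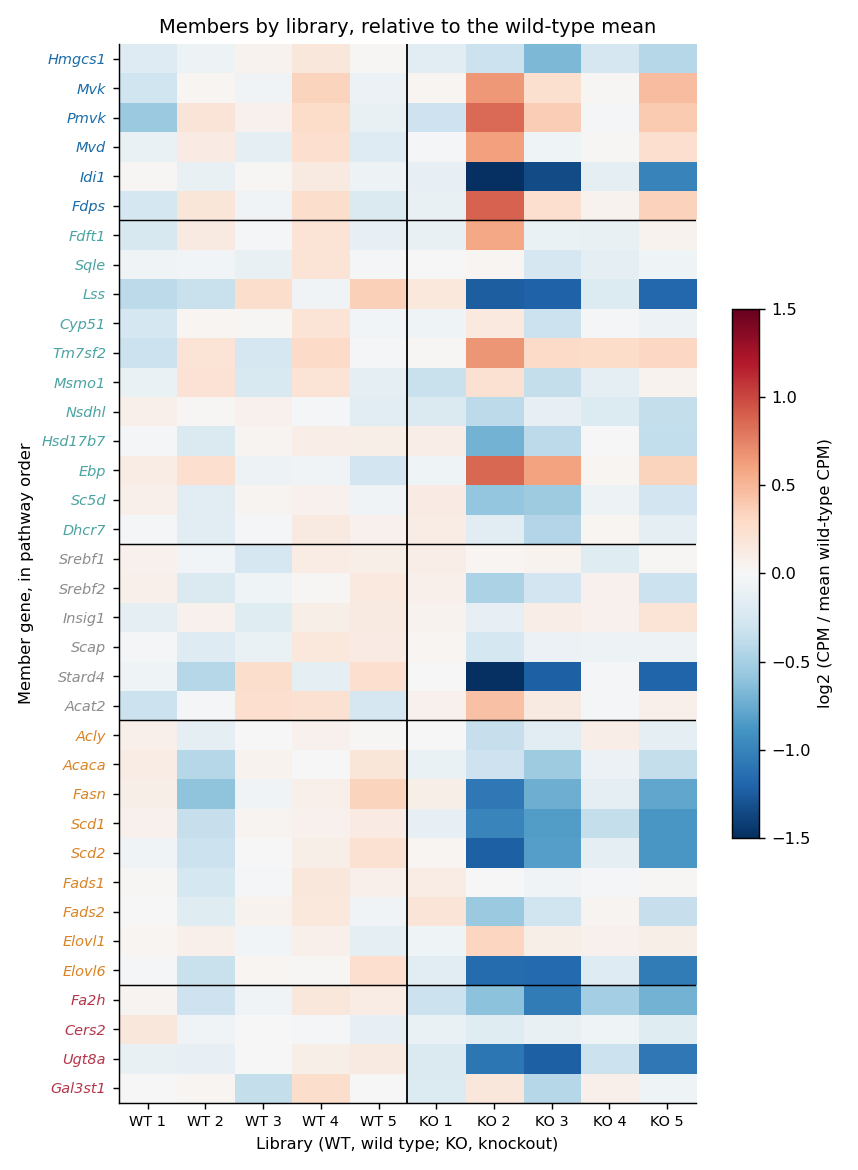
Each row is a member gene and each column a library, and the colour is the log2 ratio of its CPM to the mean wild-type CPM (values beyond the ends of the scale take the end colours). Row names are coloured by pathway group, from mevalonate at the top to galactolipids at the bottom. Knockout 2, 3 and 5 hold the darkest cells in both directions, as for Stard4 (3.61 CPM in knockout 2 against 12.1 to 19.6 CPM in wild type), while Fa2h and Ugt8a are below the wild-type range in all 5 knockout libraries.

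The galactolipid enzymes held the 2 genes with the smallest p among the members. Fa2h, the fatty acid 2-hydroxylase that makes the hydroxylated acyl chains of myelin galactolipids (Entrez 338521, GRCm38 chromosome 8, 111345138 to 111393821), stood at 98.9, 78.0, 92.7, 108 and 104 CPM in wild type 1 to 5. In knockout 1 to 5 it stood at 77.4, 63.0, 46.8, 67.9 and 59.1 CPM. The groups did not overlap, although knockout 1 lay just under wild type 2. The means were 96.5 ± 11.9 and 62.8 ± 11.3 CPM (SD, n = 5 each), a log2 fold change of -0.62 with SE 0.136 (edgeR, adjusted p = 0.182).

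Ugt8a encodes the ceramide galactosyltransferase that forms galactosylceramide (Entrez 22239, chromosome 3, 125865272 to 125938682). Its wild-type libraries had 176, 175, 191, 204 and 210.0 CPM, and its knockout libraries 165, 90.1, 81.8, 153 and 91.0 CPM. Knockout 1 and 4 lay close under the wild-type range and knockout 2, 3 and 5 far under it. This was a log2 fold change of -0.72 with SE 0.194 (edgeR, adjusted p = 0.210). The enzymes before and after this step had smaller differences. Cers2, the synthase of very long chain ceramides, had 198, 169, 177, 174 and 162 CPM in wild type and 164, 155, 163, 168 and 156 CPM in knockout, and these ranges overlapped (log2 fold change -0.13, SE 0.0835). Gal3st1, the sulfotransferase that turns galactosylceramide into sulfatide, had 44.8 to 68.8 CPM in wild type and 42.8 to 64.5 CPM in knockout (log2 fold change -0.07, SE 0.136).

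Fa2h and Ugt8a were the only 2 members called by DESeq2 (adjusted p = 0.0115 and 0.0399), which called 2.2% of all genes it tested, 0.906% as lower and 1.3% as higher. Without knockout 1, edgeR called them and Scd1 as lower (adjusted p = 0.0428, 0.0440 and 0.0463), where it called 1.03% of all genes, 0.36% as lower and 0.67% as higher. limma-voom with quality weights called 16 members as lower and 4 as higher, and 39.1% of all genes, 20.5% as lower and 18.6% as higher. Over all alternatives the adjusted p of Fa2h ran from 0.00566 to 1 and its log2 fold change from -0.78 to -0.41, and those of Ugt8a from 0.00561 to 1 and from -1.01 to -0.27. Without knockout 2, 3 and 5 the log2 fold changes were -0.41 for Fa2h and -0.27 for Ugt8a.

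Markers of myelinating Schwann cells moved with these values. All 16 listed markers had log2 fold changes below 0 (median -0.48). The edgeR test over all 10 libraries called none of them. DESeq2 called 6 as lower, where it called 0.906% of all genes as lower, and quality weights 11, where 20.5% were. Without knockout 1 edgeR called 3, where 0.36% of all genes were lower. With the length and GC trend removed edgeR called 1 marker, where it called 11 of 16018 genes as lower. The summed level of the 16 markers was 16030 to 20550 CPM in wild type and 10140 to 13890 CPM in knockout. That of the 4 galactolipid and ceramide enzymes was 481 to 555 CPM in wild type and 334 to 456 CPM in knockout. Neither pair of ranges overlapped. Of the 4 enzymes, Fa2h and Ugt8a had no overlap by themselves, while the ranges of Cers2 and Gal3st1 overlapped. Among single genes, 1.22% of all tested genes lay wholly lower in knockout. The lowest sum of both kinds was in knockout 3 and the highest in wild type 4. Pmp22, a membrane protein of peripheral myelin, had a log2 fold change of -0.57. Without knockout 2, 3 and 5 the median of the 16 markers was -0.26. In bulk cochlea RNA fewer myelinating cells and less RNA per cell cannot be told apart. Markers of oligodendrocytes, which can come along with the central part of the nerve, summed to 212 to 390 CPM in wild type and 222 to 368 CPM in knockout, with 6 of 10 below 0. The part of either cell type in the values of Fa2h and Ugt8a was not tested.

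**Figure D2:**
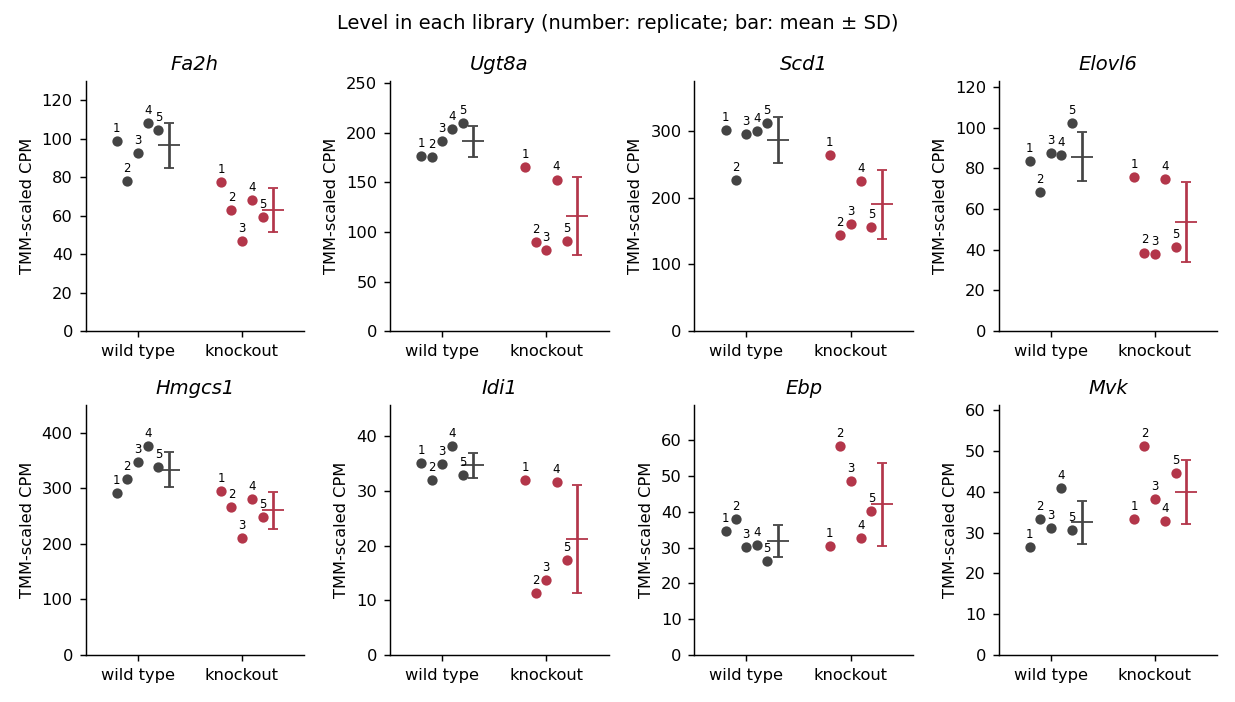
Points are the TMM-scaled CPM of single libraries, numbered by replicate, with the mean and SD beside each group, on axes that start at 0. Fa2h, Ugt8a and Idi1 have no overlap between the groups. In Scd1, Elovl6 and Idi1 knockout 1 and 4 lie near wild type and knockout 2, 3 and 5 far below, and in Ebp and Mvk knockout 2, 3 and 5 lie above knockout 1 and 4.

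Of the 6 mevalonate and isoprenoid genes, Hmgcs1 and Idi1 were below 0 and Mvk, Pmvk, Mvd and Fdps above 0. Hmgcs1, which makes HMG-CoA from acetyl-CoA units (Entrez 208715, chromosome 13, 119690351 to 119708260), had 291, 317, 347, 375 and 338 CPM in wild type and 296, 267, 210.0, 280.4 and 249 CPM in knockout. Only knockout 1 lay inside the wild-type range. Hmgcs1 had a log2 fold change of -0.36 with SE 0.113 (edgeR, adjusted p = 0.214), and -0.21 without knockout 2, 3 and 5. Mvk, the mevalonate kinase, had 26.4, 33.3, 31.2, 40.9 and 30.7 CPM in wild type and 33.3, 51.2, 38.3, 32.8 and 44.7 CPM in knockout. Here knockout 2 and 5 lay above all wild-type libraries and the other 3 within their range (log2 fold change 0.30, SE 0.152, and 0.025 without knockout 2, 3 and 5). The next kinase Pmvk had a log2 fold change of 0.31 (SE 0.212), the decarboxylase Mvd had 0.18 (SE 0.148) and the farnesyl diphosphate synthase Fdps had 0.33 (SE 0.179). Without knockout 2, 3 and 5 these values were -0.160 for Pmvk, -0.004 for Mvd and -0.026 for Fdps.

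Idi1, the isomerase that supplies dimethylallyl diphosphate to Fdps (Entrez 319554, chromosome 13, 8885606 to 8892396), had 35.2, 32.1, 35.0, 38.2 and 33.0 CPM in wild type. In knockout it had 32.0, 11.4, 13.7, 31.6 and 17.3 CPM. Knockout 1 and 4 lay just below wild type 2, and the other 3 far below it. The log2 fold change was -0.71 with SE 0.262 (edgeR, adjusted p = 0.223) and -0.13 without knockout 2, 3 and 5. Across the 6 mevalonate and isoprenoid genes the median log2 fold change was 0.24 and the mean 0.01. That direction turned in other fits. The median was -0.08 with 5 of 6 below 0 without knockout 2, 3 and 5, and -0.135 after adding principal component 1. It was -0.04 once length and GC trends were removed, and -0.17 with 6 of 6 below 0 with Y-linked expression as a covariate. Only knockout 1 shared the wild-type Y-linked level, so the Y-linked fit rests largely on that library.

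Among the 11 genes from squalene to cholesterol, 8 were below 0 and 3 above, with a median of -0.09 (-0.01 without knockout 2, 3 and 5). Nsdhl, which removes methyl groups from the sterol ring together with Msmo1 (X chromosome, 72918521 to 72958528), had 41.7, 40.1, 41.3, 39.0 and 35.5 CPM in wild type and 34.0, 30.1, 36.3, 34.4 and 30.8 CPM in knockout. Only knockout 3 reached into the wild-type range. Its log2 fold change was -0.26 with SE 0.0939 (edgeR, adjusted p = 0.223) and stayed at -0.21 without knockout 2, 3 and 5. Ebp, the sterol isomerase (X chromosome, 8185329 to 8193512), had 34.6, 37.9, 30.2, 30.7 and 26.2 CPM in wild type and 30.6, 58.3, 48.6, 32.7 and 40.2 CPM in knockout. Knockout 2, 3 and 5 lay above the wild-type range and knockout 1 and 4 within it, and the log2 fold change of 0.40 (SE 0.178) turned to -0.01 without those 3 libraries. Lss, the lanosterol synthase, had 17.2, 17.9, 27.0, 21.6 and 28.7 CPM in wild type and 25.2, 9.56, 9.69, 19.5 and 9.93 CPM in knockout. The same 3 libraries lay below the wild-type range here, and the log2 fold change went from -0.60 (SE 0.288) to -0.01 without them.

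The remaining sterol enzymes ran from -0.24 to 0.32. Log2 fold changes were 0.09 for the squalene synthase Fdft1, -0.08 for the squalene epoxidase Sqle, -0.06 for the lanosterol demethylase Cyp51 and -0.09 for the methyl oxidase Msmo1. They were 0.32 for the sterol reductase Tm7sf2, -0.24 for Hsd17b7, the ketosteroid reductase that acts with Nsdhl, -0.24 for the lathosterol desaturase Sc5d and -0.11 for Dhcr7, which makes the last bond change to cholesterol. Standard errors ran from 0.0923 for Sqle to 0.155 for Tm7sf2. Without knockout 2, 3 and 5 Fdft1, Hsd17b7, Sc5d and Dhcr7 took the opposite sign, at -0.114, 0.052, 0.031 and 0.076. Over the 17 sterol enzymes together the median was -0.08 with 10 below 0, and -0.026 without those 3 libraries.

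Promoter sequences are shown for 2 sterol enzymes with lower values (Hmgcs1 and Idi1), 2 with higher values (Mvk and Ebp) and Ugt8a, because the members of the sterol pathway are known to share SREBP control and yet differed in sign here. The letters are the 250 bases before the RefSeq start (GRCm38.p6), in the direction of the gene, and capitals mark 2 motifs on either strand, the sterol regulatory element TCACNCCAC bound by SREBP and the CCAAT box (CCAAT, or ATTGG on the other strand) bound by its partner NF-Y.
Hmgcs1, chr13:119690101-119690350, plus strand: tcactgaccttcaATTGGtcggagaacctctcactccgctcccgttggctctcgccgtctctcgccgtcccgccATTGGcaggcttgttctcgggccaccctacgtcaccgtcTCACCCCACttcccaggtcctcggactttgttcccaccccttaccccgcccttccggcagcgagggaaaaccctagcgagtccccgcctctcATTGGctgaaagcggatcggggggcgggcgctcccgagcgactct
Idi1, chr13:8885356-8885605, plus strand: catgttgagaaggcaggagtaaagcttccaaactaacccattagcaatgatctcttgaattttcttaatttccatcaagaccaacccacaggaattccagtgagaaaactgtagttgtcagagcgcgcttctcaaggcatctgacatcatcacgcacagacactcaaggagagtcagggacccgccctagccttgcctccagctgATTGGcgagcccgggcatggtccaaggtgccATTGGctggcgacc
Mvk, chr5:114444019-114444268, plus strand: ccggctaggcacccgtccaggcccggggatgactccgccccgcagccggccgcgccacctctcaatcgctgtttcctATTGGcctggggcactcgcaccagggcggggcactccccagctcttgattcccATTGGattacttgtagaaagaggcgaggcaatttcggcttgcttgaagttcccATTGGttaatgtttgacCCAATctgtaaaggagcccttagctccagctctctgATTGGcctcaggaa
Ebp, chrX:8193513-8193762, minus strand: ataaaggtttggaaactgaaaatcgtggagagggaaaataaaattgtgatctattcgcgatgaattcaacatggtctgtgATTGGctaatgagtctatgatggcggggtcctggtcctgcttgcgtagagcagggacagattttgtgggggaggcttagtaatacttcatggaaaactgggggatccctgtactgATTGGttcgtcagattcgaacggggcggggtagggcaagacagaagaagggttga
Ugt8a, chr3:125938653-125938902, minus strand: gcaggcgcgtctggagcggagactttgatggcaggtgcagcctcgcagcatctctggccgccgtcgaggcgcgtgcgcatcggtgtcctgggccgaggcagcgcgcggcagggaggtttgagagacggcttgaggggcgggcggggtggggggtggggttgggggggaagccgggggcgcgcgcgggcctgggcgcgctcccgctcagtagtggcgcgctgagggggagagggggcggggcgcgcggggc

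In windows of 300 bases (250 before the start and 50 after it), which RefSeq gave for 28 of the 36 members, the CCAAT box was found in 14 of 14 sterol enzymes and in 8 of 14 other members, and in 41.1% of all genes with a window. Of those 14 sterol enzymes 9 had a log2 fold change below 0 and 5 above, and the edgeR test over all 10 libraries called none of them. The sterol regulatory element letters were found in Hmgcs1 alone among the members and in 1.44% of all genes. The core letters bound by PKNOX, MEIS and TGIF proteins, TGACAG, were found in 8 of the 28 members (Pmvk, Lss, Ebp, Dhcr7, Srebf1, Scap, Acat2 and Elovl1) and in 21.6% of all genes. No window was given for Fdps, Fdft1, Sqle, Stard4, Scd1, Scd2, Fads1 and Fa2h. Ugt8a had none of the 3 motifs in its window.

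Among the 6 regulators and carriers the values ran from -0.70 for Stard4 to 0.15 for Acat2, and no unadjusted p was under 0.05. Srebf1 and Srebf2 encode SREBP1 and SREBP2. Srebf1 had a log2 fold change of 0.01 (SE 0.0963). Srebf2 had 176, 144, 159.8, 169 and 185 CPM in wild type and 176, 120.4, 137, 174 and 134 CPM in knockout, and knockout 2, 3 and 5 lay below the wild-type range (log2 fold change -0.17, SE 0.124, and 0.071 without those 3). Scap, which escorts SREBP to the Golgi, had -0.09 (SE 0.0950), and Insig1, which holds it back and is itself an SREBP target, had 0.07 (SE 0.0962). Stard4, a carrier of cholesterol between membranes, had 15.6, 12.1, 19.6, 14.7 and 19.3 CPM in wild type and 16.2, 3.61, 6.95, 16.0 and 7.10 CPM in knockout. Knockout 1 and 4 lay inside the wild-type range and the other 3 below it, so that the log2 fold change of -0.70 (SE 0.348) was -0.01 without them. Acat2, the cytosolic thiolase that makes acetoacetyl-CoA, had 37.8, 47.0, 56.7, 55.6 and 40.0 CPM in wild type and 49.7, 64.2, 52.1, 46.4 and 50.1 CPM in knockout, with only knockout 2 outside the wild-type range (log2 fold change 0.15, SE 0.138). Acat2 has a close paralog, Acat3 (0.65 CPM in wild type), and reads that fit both may be split or lost.

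In the fatty acid group the 3 genes with the smallest p were Scd1, Elovl6 and Scd2, and their values were also the lowest of the group. Scd1, a stearoyl-CoA desaturase that makes oleic acid (Entrez 20249, chromosome 19, 44394450 to 44407709), had 301, 226, 296, 299.6 and 312 CPM in wild type and 264, 144, 161, 224 and 156 CPM in knockout. Only knockout 1 lay inside the wild-type range, whose low end was wild type 2 alone. The log2 fold change was -0.59 with SE 0.171 (edgeR, adjusted p = 0.210) and -0.23 without knockout 2, 3 and 5. Scd2, its paralog and the highest member per length at 228 CPM per kb in wild type, had 1203, 995, 1234, 1326 and 1463 CPM in wild type and 1266, 533, 702, 1126 and 682 CPM in knockout. Knockout 1 and 4 lay within the wild-type range and the other 3 below it, and the log2 fold change of -0.53 (SE 0.223) was -0.06 without them. Elovl6, the elongase that makes stearic from palmitic acid (Entrez 170439, chromosome 3, 129532386 to 129638495), had 83.7, 68.2, 87.6, 86.8 and 102 CPM in wild type and 75.9, 38.6, 38.1, 74.7 and 41.5 CPM in knockout. Again knockout 1 and 4 lay within the wild-type range and the other 3 below it. The log2 fold change was -0.67 with SE 0.215 (edgeR, adjusted p = 0.214) and -0.19 without knockout 2, 3 and 5.

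The other enzymes of the group were nearer to 0. Fasn, the fatty acid synthase, had a log2 fold change of -0.46 (SE 0.227), which was -0.015 without knockout 2, 3 and 5, and Acaca, the acetyl-CoA carboxylase before it, had -0.27 (SE 0.129). Acly, which supplies cytosolic acetyl-CoA from citrate, had -0.10 (SE 0.0997). The polyunsaturate desaturases Fads1 and Fads2 had 0.01 (SE 0.0942) and -0.17 (SE 0.138), and Elovl1, an elongase of very long saturated chains, had 0.10 (SE 0.0919). The median of the 9 genes was -0.27 with 7 below 0, and -0.015 without knockout 2, 3 and 5. Their summed level was 2023 to 2836 CPM in wild type and 1421 to 2524 CPM in knockout, with knockout 2, 3 and 5 at 1421, 1634 and 1622 CPM.

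**Figure D3:**
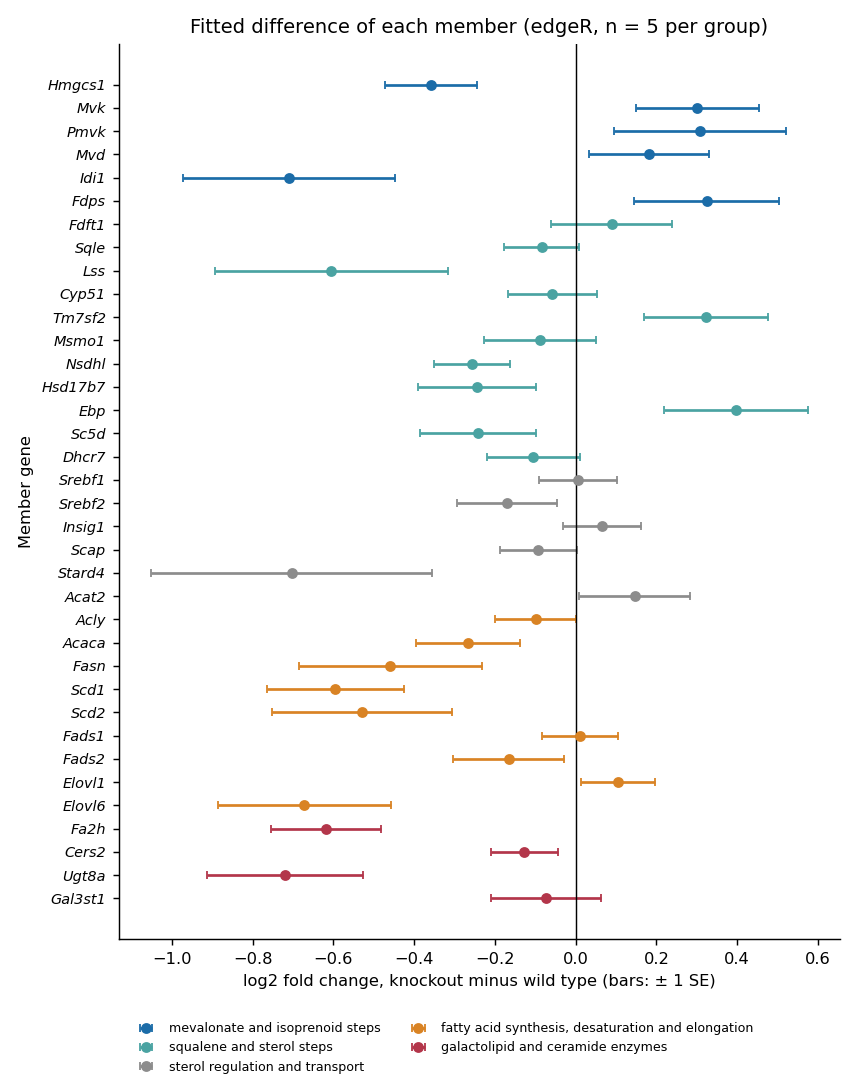
Points are the fitted log2 fold changes (knockout minus wild type) of the 36 members with bars of 1 SE, in pathway order and coloured by group. The values run from -0.72 for Ugt8a to 0.40 for Ebp. The fatty acid and galactolipid groups lie mostly below 0, and the mevalonate group is split between 4 values above 0 and 2 below.

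Levels among the members, compared per exon length in wild type, ran from 228 CPM per kb for Scd2 to 3.13 for Stard4. Hmgcs1 (95.8), Cers2 (79.4), Scd1 (59.4), Elovl1 (58.1) and Fdps (51.0) followed Scd2, and Sc5d (4.61) and Lss (4.82) stood next to Stard4. Of the galactolipid enzymes, Ugt8a was at 46.0, Fa2h at 38.7 and Gal3st1 at 28.1 CPM per kb.

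Exon length went along with the sign of the difference. The 12 members above 0 had a median exon length of 1968.5 bases and the 24 below 0 one of 4195.5 bases. All 7 members under 2000 bases (Mvk, Pmvk, Mvd, Fdps, Tm7sf2, Ebp and Elovl1) were above 0, with a median of 0.31, and 13 of 14 members of 4000 bases or more were below 0, with a median of -0.36. All tested genes showed the same order, with medians of 0.25 under 2000 bases and -0.18 from 4000 bases on. Spearman's rho of exon length and log2 fold change was -0.70 over the 36 members and -0.50 over 15410 tested genes, as a description over genes that share the same libraries. With each library's trend over length and GC content removed, Fa2h had a log2 fold change of -0.70, Ugt8a -0.62, Idi1 -0.67 and Stard4 -0.58. In the same fit Mvk had 0.04, Fdps 0.06, Pmvk -0.03 and Mvd -0.06. The median of the 9 fatty acid genes went from -0.27 to -0.18, with 7 still below 0. That of the 4 galactolipid and ceramide enzymes went from -0.37 to -0.45. No member was called in that fit, where the smallest adjusted p was 0.0787 (edgeR quasi-likelihood test).

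**Figure D4:**
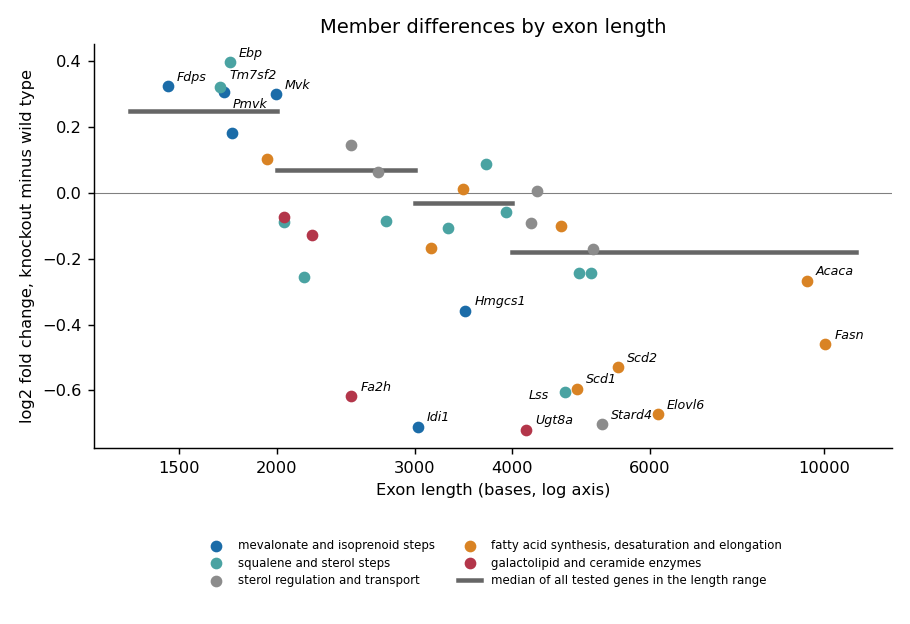
Each point is a member, placed by its exon length (log axis, bases) and its log2 fold change, and coloured by pathway group. The grey lines are the medians of all tested genes in 4 length ranges, which step down from 0.25 to -0.18. Fa2h and Idi1 lie well below the line of their range, at -0.62 and -0.71 against 0.07 and -0.03.

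Knockout 2, 3 and 5 were the 3 lowest knockout libraries for 19 of the 36 members and the 3 highest for 8, which are 52.8% and 22.2% of the members, against 31.7% and 31.3% of all tested genes. When they were left out, 13 of the 36 log2 fold changes took the opposite sign and none was called. The largest in size were then -0.41 for Fa2h, -0.27 for Ugt8a, -0.23 for Scd1, -0.23 for Msmo1, -0.21 for Hmgcs1 and -0.21 for Nsdhl. As these libraries were picked from the same counts, such a shift is partly given by the choice.

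**Figure D5:**
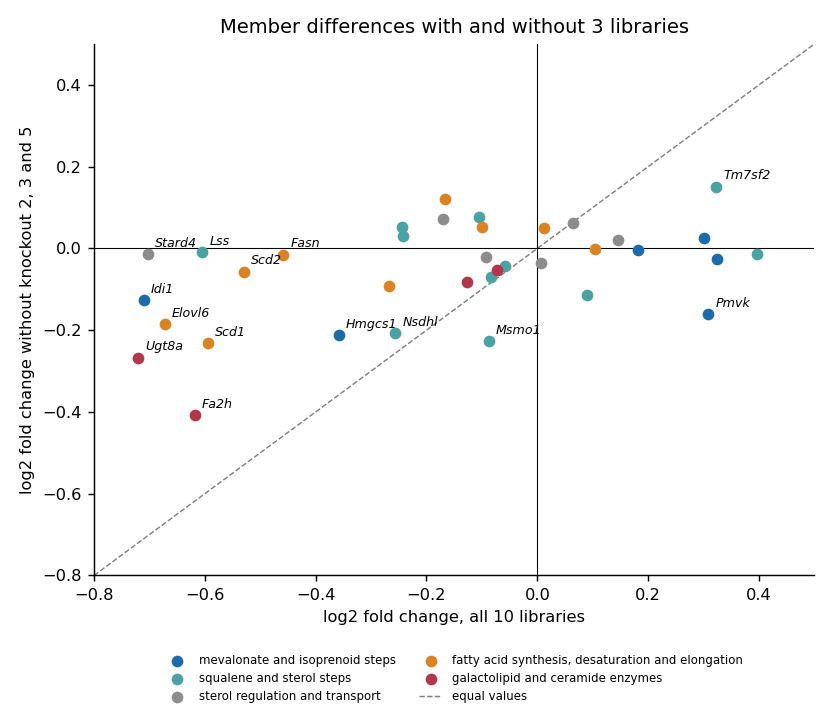
The log2 fold change of each member over all 10 libraries (horizontal) is plotted against its value without knockout 2, 3 and 5 (vertical), with a dashed line of equal values. Most points move toward 0, Stard4, Lss and Fasn almost fully, while Fa2h stays the lowest at -0.41 and Nsdhl and Hmgcs1 lie nearest the dashed line among the members below -0.2.

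Genes of the same pathways outside the 36 were also read as lists, and the edgeR test over all 10 libraries called none of them. DESeq2 called 0 of the further sterol genes, and as lower 1 of the uptake, efflux and storage genes and 1 of the further fatty acid genes. Of the further sphingolipid genes it called 2 as lower and 1 as higher. It called 0.906% of all genes as lower and 1.3% as higher. Quality weights called 4, 7, 12 and 6 of the 14, 18, 27 and 27 genes tested in these lists as lower. As higher they called 1, 2, 3 and 5, against 20.5% lower and 18.6% higher over all genes. Without knockout 1, edgeR called 1 uptake, efflux and storage gene as lower and 1 sphingolipid gene as higher. That fit called 0.36% of all genes as lower and 0.67% as higher. Without knockout 2, 3 and 5 the list medians, in the same order, were 0.005, -0.09, -0.06 and 0.03, and none was called. Of 14 further sterol genes 11 were below 0, with a median of -0.19, against 7 of 14 without knockout 2, 3 and 5. Among them Rdh11 had a log2 fold change of -0.31 (SE 0.134). Of 18 genes of cholesterol uptake, efflux and storage 11 were below 0, with a median of -0.14. Mylip, which marks the LDL receptor for degradation, had -0.60 (SE 0.161), Lcat, which esterifies cholesterol in lipoproteins, had -0.40 (SE 0.150), and Npc2, a lysosomal cholesterol carrier, had 0.52 (SE 0.181).

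Of 27 further fatty acid genes tested 18 were below 0, with a median of -0.12. Acsl6, an acyl-CoA synthetase, had 26.4 ± 5.81 CPM in wild type and 14.3 ± 5.02 CPM in knockout (SD, n = 5 each; log2 fold change -0.88, SE 0.234), and the groups did not overlap. Acss2, which makes acetyl-CoA from acetate and is an SREBP target, had -0.46 (SE 0.129) with no overlap either, and Acacb had -0.48 (SE 0.141). Of 27 further sphingolipid genes tested 16 were below 0, with a median of -0.04. The dihydroceramide desaturase Degs2 had -0.54 (SE 0.117) and the ceramide kinase Cerk had -0.41 (SE 0.0964), both without overlap. Of all tested genes 1.22% lay wholly lower in knockout, and Acsl6, Acss2, Degs2 and Cerk were named for their small p. Hexa, a lysosomal hexosaminidase subunit, had 0.70 (SE 0.190). Macrophage markers, whose cells are rich in lysosomes, summed to 495 to 679 CPM in wild type and 640 to 876 CPM in knockout, with 7 of 10 above 0 and a median log2 fold change of 0.35. That median was -0.02 without knockout 2, 3 and 5, -0.01 after adding principal component 1 and 0.03 once length and GC trends were removed, and the markers' part in the values of Hexa and Npc2 was not tested.

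Markers of adipocytes, which also express Fasn and Scd1, were low. Only 4 of 10 adipocyte markers passed the filter, the list summed to 21.2 to 40.5 CPM in wild type and 21.0 to 35.8 CPM in knockout, and Lep, Plin1, Cidec, Retn, Cfd and Ucp1 were too low to test, the highest wild-type mean among them being 0.316 CPM for Plin1. Neuron markers summed to 1933 to 2896 CPM in wild type and 1020 to 2263 CPM in knockout, with 7 of 9 below 0 (median -0.42, and -0.22 without knockout 2, 3 and 5), and their part in the members' values was not tested.

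In the GENCODE basic annotation, exons of 12 members share bases with another gene model, 9 of them with one on the opposite strand. The counts are per Entrez gene, and whether these other models were part of the counting is not stated. Whether counting used strand is not stated in the labels. The longest stretches are 1124 of 1453 bases of Fdps with Gm43738 and 785 of 4227 bases of Scap with 5830462I19Rik. Fa2h and Ugt8a share none.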

How the data were processed

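Bulk RNA of cochleas was sequenced in 5 knockout and 5 wild-type libraries. The authors deposited raw counts per Entrez gene, with HISAT2, featureCounts, limma and the build mm10 named in the submitters' processing notes without versions or roles. Neither notes nor labels state the strand setting. Totals were 16.6 to 19.4 M counts per library, and Stard4, the member with the fewest counts, had 2317 over all libraries. Sc5d and Lss had like levels in wild type, 22.4 and 22.5 CPM, with SEs of 0.144 and 0.288. Level alone thus did not set the precision.

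Gene symbols were taken from RefSeq (25275 of 27179 rows), and exon lengths and shared exon bases from the GENCODE basic annotation. Counts were scaled by TMM, filtered with filterByExpr (minimum count 10, minimum total 15) and tested with edgeR 4.0.16 in R 4.3.3 by the quasi-likelihood F-test, with Benjamini-Hochberg adjustment over all 16018 tested genes and a call at an adjusted p under 0.05. The SE of a log2 fold change is its size divided by the square root of F. Alternatives used DESeq2 1.42.0 and limma 3.58.1, other scalings, filters, covariates and subsets of libraries. No 2 libraries of the same group agreed within counting noise.

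All 36 members are named. Values per library are given for the 3 members of each group with the smallest p and a few more, and up to 3 genes of smallest p are named from each list of other pathway genes. Some genes that this rule names are not reported here. The members, lists and motifs were chosen with earlier results of these data known. Scd1, Scd2, Acat2 and their paralogs may share reads.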

Additional observations from a re-analysis of the deposited data

Results flagged for a closer look

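In 3 of the 72 groups of 5 libraries checked over the 36 members, 1 library stood far from the other 4, by a gap above 0.71 of the group's range. Chance gives about 1 in 20 such groups. Scd1 was at 226.4 CPM in wild type 2, below the other wild-type libraries at 295.6 to 312.3 CPM. Fdft1 was at 79.76 CPM in knockout 2, above the other knockout libraries at 49.11 to 55.44 CPM. Sqle was at 80.23 CPM in wild type 4, above the other wild-type libraries at 64.2 to 68.39 CPM.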

How the results depend on the processing

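Of 792 log2 fold changes of the 36 members under the alternatives, 708 kept their sign and side of the threshold, 25 became called and 59 took the opposite sign. Members called numbered 2 with DESeq2 and 20 with limma-voom and quality weights, and 0 to 3 over the leave-one-out fits, the 3 without knockout 1. All genes called numbered 333 with DESeq2, 6259 with quality weights, 7 at an adjusted p under 0.1, 14 with the length and GC trend removed, 1 with the first component as a covariate, 1 without knockout 2, 3 and 5, and 1 to 166 over the leave-one-out fits (edgeR for all but the first 2 settings). With Y-linked expression as a covariate edgeR called 0 genes, while 332 had an unadjusted p under 0.05. The group difference in that fit rests largely on knockout 1, the only knockout library at the wild-type Y-linked level. Its lack of calls therefore says little about the members. The length and GC setting was added after seeing the data. Knockout 2, 3 and 5 were likewise picked for leaving out because they stood apart in these counts. Medians without knockout 2, 3 and 5 were -0.015 for the fatty acid enzymes and -0.174 for the galactolipid and ceramide enzymes. The cause of these shifts was not tested.

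The log2 fold changes that took the opposite sign follow. With the Y-linked covariate they were Mvk -0.010, Pmvk -0.247, Mvd -0.129, Fdps -0.131, Fdft1 -0.208, Hsd17b7 0.062, Sc5d 0.031, Srebf2 0.046, Scap 0.009, Acly 0.020, Fads2 0.161 and Elovl1 -0.054. With the first component they were Pmvk -0.186, Mvd -0.072, Fdps -0.084, Fdft1 -0.179, Hsd17b7 0.057, Ebp -0.032, Sc5d 0.009, Dhcr7 0.050, Srebf1 -0.012, Srebf2 0.083, Scap 0.016, Stard4 0.004, Acat2 -0.013, Acly 0.061, Fasn 0.050, Fads2 0.102 and Elovl1 -0.035. Without knockout 2, 3 and 5 they were Pmvk -0.160, Mvd -0.004, Fdps -0.026, Fdft1 -0.114, Hsd17b7 0.052, Ebp -0.013, Sc5d 0.031, Dhcr7 0.076, Srebf1 -0.035, Srebf2 0.071, Acly 0.053, Fads2 0.121 and Elovl1 -0.001. With the length and GC trend removed they were Pmvk -0.028, Mvd -0.058, Cyp51 0.059, Acaca 0.062 and Elovl1 -0.054, and with quality weights Fads1 -0.012. Leaving out single libraries gave ranges across 0 for Srebf1 (-0.051 to 0.044), Fads1 (-0.047 to 0.058), Fdft1 (-0.066 to 0.146) and Gal3st1 (-0.151 to 0.002), and for Cyp51 -0.117 to 0.

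With the replicate number as a replicate block, 0 members and 1 gene in all were called. The deviations of same-numbered libraries correlated at 0.162, 0.51, 0.0289, 0.0909 and -0.383, and only number 2 had its own number as best partner, so the numbers were not taken as a pairing.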
